A study of Mus musculus with 22 samples.

Results

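DNA replication and mitosis genes were followed across 22 mouse tumours as a set of 49 genes, all of them rows of a deposited table of 17966 genes. The set was a fixed list of names, chosen with earlier results of these data known. It held 22 genes that act in S phase, when DNA is copied, and 27 that act in mitosis, when the copied chromosomes are separated. For 47 of the 49 the level was high enough to be tested: 21 S phase and 26 mitotic members reached a normalized count of at least 10 in at least 5 tumours.

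The tumours were orthotopic pancreatic tumours grown from PDA.7940B, a polyclonal line derived from the KPC mouse model of pancreatic ductal adenocarcinoma, and every sample was labelled WT. RNA was taken from fixed, paraffin-embedded sections 10 days after treatment. There were 5 untreated tumours, 6 after 1 intravenous dose of 1.2 mg beta-glucan, 6 after 1 intraperitoneal dose of 0.1 mg of the CD40 antibody FGK45 (anti-CD40), and 5 after both agents, called the combination here. The doses of the combination are not stated in the labels. Beta-glucan is a polysaccharide of fungal and yeast cell walls that activates myeloid cells, and the antibody stimulates CD40, a receptor on antigen-presenting cells. Nothing in the labels ties a tumour to a mouse. The p-values reflect only how far samples varied within groups, with 1 variance per gene shared by all 4 groups. A section holds every cell type of the tumour, and fewer cycling cells cannot be told apart from less RNA per cycling cell.

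Cells copy their DNA from origins that are prepared, or licensed, in G1. ORC, Cdc6 and Cdt1 load the ring-shaped Mcm2 to Mcm7 helicase, and Mcm10 and the GINS complex help to start it. Most licensing and S phase genes are targets of the E2F transcription factors, which are held back by the retinoblastoma protein until G1 cyclins and their kinases act. Mitotic genes peak later, and many of their promoters carry a CHR element and CCAAT boxes, which bind the MuvB complexes (with B-Myb and FOXM1, or with the DREAM repressor) and NF-Y. In pancreatic cancer the tumour cells are a main source of these transcripts, but dividing lymphocytes, macrophages and fibroblasts also make them.

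Promoter sequences make no use of the tumour values, and they are shown first because the motifs they held differed between the S phase and mitotic members. RefSeq promoter windows of the GRCm38.p6 build (mm10), 250 bases before to 50 bases after each start, were found for 39 of the 49 members, 19 S phase and 20 mitotic; Mcm4, Gins1, Gins2, Ccna2, Cdc25c, Aurkb, Foxm1, Kif20a, Tpx2 and Pimreg had no entry. The window was 300 bases long, and 3 members had 2 windows. A gene was counted where any of its windows held the motif. The bases just after the start were found in a GENCODE transcript of the same gene for 29 of the 42 member windows. An E2F motif was searched as TTCCCGC, and in its variant forms as TTCGCGC, likewise as TTGCCGC, and finally also as TTGGCGC. The CHR motif was searched as TTTGAA and the NF-Y box by its letters CCAAT, each on both strands. E2F letters can overlap their own match on the other strand, and an E2F match can overlap a CCAAT box. An E2F motif occurred in 13 of 19 S phase members (68.4%), in 3 of 20 mitotic members (15%) and in 16.8% of the 13746 genes of the table with a window. The CHR motif occurred in 14 of 20 mitotic members (70%), in 2 of 19 S phase members (10.5%) and in 15.4% of all genes. A CHR motif together with a CCAAT box was present in the same 14 mitotic members, in 1 S phase member and in 6.20% of all genes. At least 2 CCAAT boxes were found in 12 of 20 mitotic and 7 of 19 S phase members, against 15.1% of all genes.

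**Figure D1:**
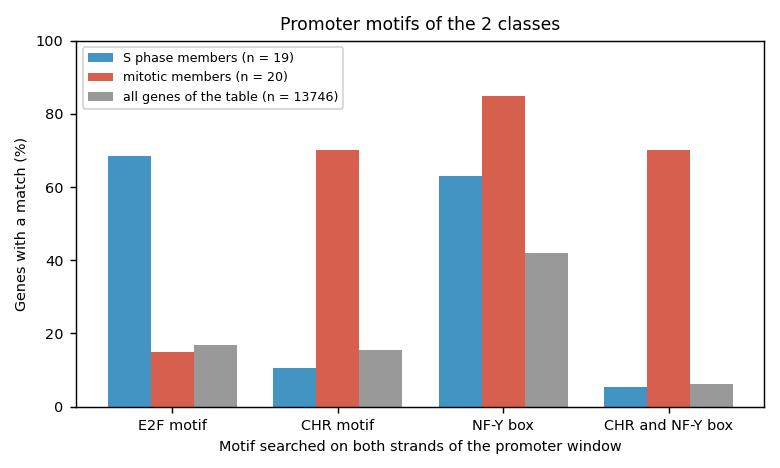
Share of promoter windows (%, vertical axis) with at least 1 match to each motif (horizontal axis), for 19 S phase members, 20 mitotic members and 13746 genes of the table. E2F matches stand highest in the S phase members at 68.4%, and CHR matches in the mitotic members at 70%.

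The 200 bases before the start are printed for 3 S phase and 3 mitotic members, in the 5′ to 3′ direction of each gene, with every E2F, CHR and CCAAT match in capitals. They were taken, 3 from each class, in order of p in anti-CD40 against untreated tumours, among members whose stretch held a match. Ccne1, with the smallest p of the S phase members there, had no match in its window. Mcm3, Mcm7 and Mcm6 encode helicase subunits and lie at chr1:20820313-20820512, chr5:138171884-138172083 and chr1:128359706-128359905, all on the minus strand. Kif23 encodes a kinesin of the central spindle, Cenpf a kinetochore protein and Ttk the kinase MPS1 of the spindle checkpoint. Their stretches are chr9:61946800-61946999 (minus), chr1:189688087-189688286 (minus) and chr9:83834489-83834688 (plus).
Mcm3: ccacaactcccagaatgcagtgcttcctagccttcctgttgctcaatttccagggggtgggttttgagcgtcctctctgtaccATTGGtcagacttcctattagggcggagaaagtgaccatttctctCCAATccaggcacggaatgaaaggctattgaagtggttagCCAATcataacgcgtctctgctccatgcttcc
Mcm7: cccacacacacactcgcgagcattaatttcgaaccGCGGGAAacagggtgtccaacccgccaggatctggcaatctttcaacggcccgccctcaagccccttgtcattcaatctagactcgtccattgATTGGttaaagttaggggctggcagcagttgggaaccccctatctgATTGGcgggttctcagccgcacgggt
Mcm6: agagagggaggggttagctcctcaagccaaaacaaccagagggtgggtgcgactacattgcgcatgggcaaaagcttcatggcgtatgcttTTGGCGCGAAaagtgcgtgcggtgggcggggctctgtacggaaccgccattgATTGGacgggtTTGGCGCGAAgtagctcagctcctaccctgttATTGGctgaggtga
Kif23: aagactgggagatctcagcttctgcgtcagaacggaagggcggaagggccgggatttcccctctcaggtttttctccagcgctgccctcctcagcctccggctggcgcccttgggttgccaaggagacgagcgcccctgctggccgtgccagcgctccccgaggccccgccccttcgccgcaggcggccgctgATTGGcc
Cenpf: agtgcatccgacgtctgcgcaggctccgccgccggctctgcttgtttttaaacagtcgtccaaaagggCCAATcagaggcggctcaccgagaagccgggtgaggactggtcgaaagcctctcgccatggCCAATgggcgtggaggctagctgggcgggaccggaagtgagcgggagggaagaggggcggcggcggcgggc
Ttk: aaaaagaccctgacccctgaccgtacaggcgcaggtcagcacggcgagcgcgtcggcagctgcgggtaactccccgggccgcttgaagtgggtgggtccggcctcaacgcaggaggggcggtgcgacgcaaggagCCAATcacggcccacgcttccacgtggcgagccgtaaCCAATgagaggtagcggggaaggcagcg

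Mcm6 held 4 E2F matches in this stretch, as 2 pairs of overlapping matches on opposite strands. Mcm7 held 1 in the stretch shown and 3 in the whole window it came from, which is 1 of its 2 windows. The E2F matches of Mcm3 lay after its start. Kif23, Cenpf and Ttk carried CCAAT boxes before the start and a CHR match just after it.

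Shorter stretches of 30 bases, chosen after the values were seen from members that were lower with the combination, show single matches in capitals. The E2F matches are those of Cdc6 (chr11:98908002-98908031, plus), Uhrf1 (chr17:56303278-56303307, plus), Pola1 (chrX:93632306-93632335, minus) and Mcm3 (chr1:20820275-20820304, minus).
Cdc6: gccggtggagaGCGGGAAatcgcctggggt
Uhrf1: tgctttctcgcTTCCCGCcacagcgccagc
Pola1: cctcgccgaggTTCCCGCttttcgctcagg
Mcm3: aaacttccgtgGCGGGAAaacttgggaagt

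The CHR matches are those of Cenpf (chr1:189688067-189688096, minus), Kif23 (chr9:61946780-61946809, minus), Top2a (chr11:99024351-99024380, minus), Ube2c (chr2:164769888-164769917, plus), Kif11 (chr19:37376351-37376380, plus) and Plk1 (chr7:122159453-122159482, plus).
Cenpf: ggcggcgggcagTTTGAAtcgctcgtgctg
Kif23: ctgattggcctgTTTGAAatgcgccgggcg
Top2a: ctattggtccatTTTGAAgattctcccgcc
Ube2c: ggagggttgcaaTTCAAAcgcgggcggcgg
Kif11: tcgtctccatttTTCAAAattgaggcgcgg
Plk1: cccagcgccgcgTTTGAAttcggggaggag

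These matches describe letters in the windows and were not tested as binding sites. Birc5, Cenpe, Ccnb1 and Nusap1 were also lower with the combination but had no CHR match in their windows. Aurka, Bub1b, Ccnb2, Cdc20, Cdk1, Cenpa, Mki67 and Ttk held a CHR match and were not called. Likewise Mcm2 was lower without an E2F match, and Mcm5, Prim1, Rrm1, Rrm2 and Fen1 held a match and were not called.

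Levels are given as normalized counts, that is, reads divided by a size factor of each tumour. Each read comes from the 3′ end of a transcript. Tumours held 6327092 to 21173617 reads, of which 3303 to 35533, or 0.0236 to 0.300%, fell on the members. Differences are log2 fold changes on the log2(normalized count + 1) scale with their standard errors, tested with limma and Benjamini-Hochberg adjustment over 14278 genes, and a member is said to rise or fall where the adjusted p was below 0.05. The 2 members without a test were close to absent. Rfc4, a subunit of the clamp loader, had 0 reads in each of the 5 combination tumours, a count that allows up to 3 reads, and at most 17 reads in any tumour. Kif20a, a kinesin of cytokinesis, had 0 to 43 reads, and its highest normalized count was 47.4, in a beta-glucan tumour. In 8 members the last 1000 bases hold an exon of another gene on the other strand. Rfc4 (Eif4a2), Kif20a (Cdc23) and Gins2 (Gse1) are among them.

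Some tumours stood apart before any comparison was made. Acinar genes, which mark normal exocrine pancreas, took 50.7% of the reads of anti-CD40 tumour 6. In combination tumours 4 and 5 they took 26.9% and 27.3%. The median was 2.42% in untreated tumours, 2.01% after beta-glucan, 23.6% after anti-CD40 and 21.2% with the combination. Anti-CD40 6 and combination 4 and 5 had the lowest mean levels of both member classes. Combination 4 was among the 3 lowest tumours for 34 of 47 members, combination 5 for 35 and anti-CD40 6 for 28. At the other end, anti-CD40 4 was among the 3 highest tumours for 31 of 47 members, and acinar genes took 21.8% of its reads. In anti-CD40 2 and 3 they took 26.5% and 25.5%. The mean log2(normalized count + 1) there was 7.75 and 7.64 for S phase and 8.04 and 8.37 for mitotic members. Untreated tumours had 7.65 to 7.91 and 7.53 to 8.25. Combination 2, with 21.2% acinar reads, had 7.26 and 7.35. The part of acinar tissue in the members' levels was not tested.

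**Figure D2:**
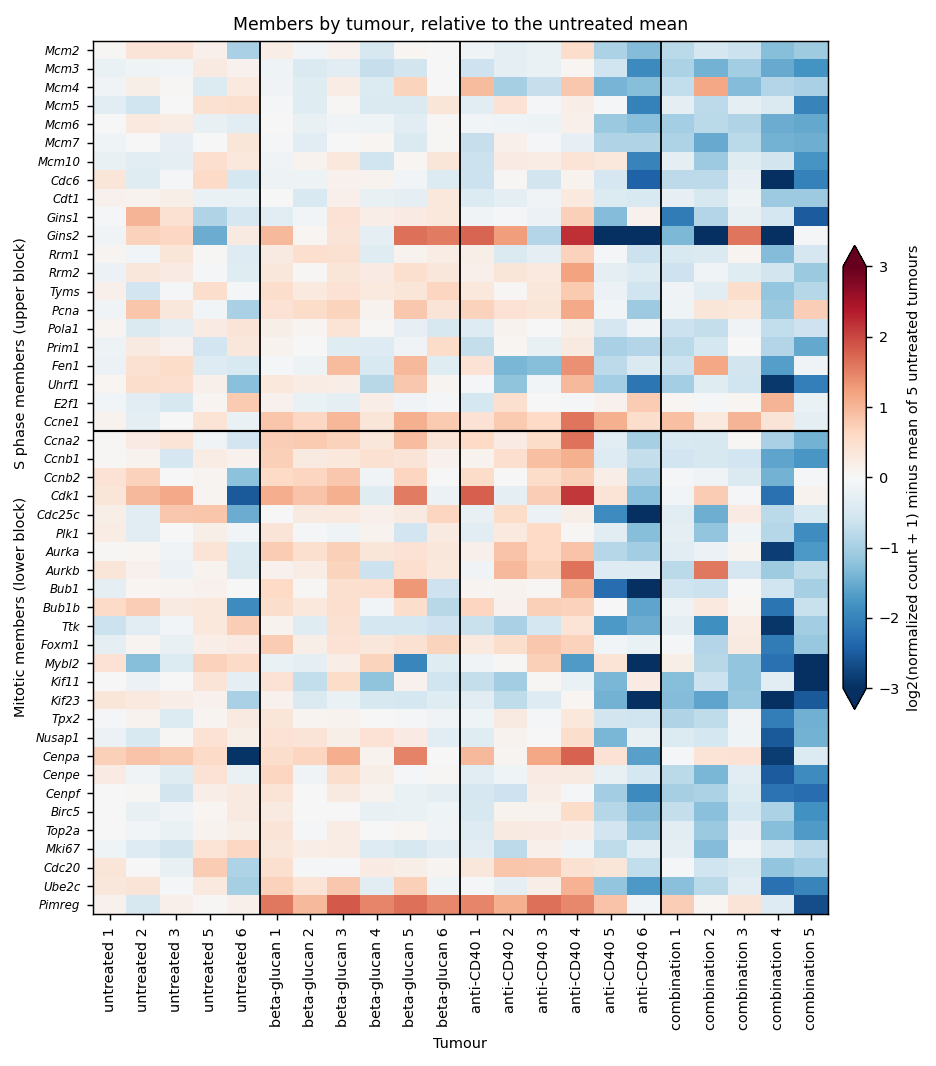
Level of each of 47 tested members (rows) in each of 22 tumours (columns), as log2(normalized count + 1) minus the mean of the 5 untreated tumours; red is above and blue below that mean. Combination tumours 4 and 5 and anti-CD40 tumour 6 are blue for most members, and anti-CD40 tumour 4 is red for most.

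The first question was whether the combination changed replication and mitosis genes relative to no treatment. Members fell with the combination in both classes: 20 of 47 were lower and 0 higher in limma. Of all genes tested, 15.8% were lower and 34.0% changed in either direction. The 20 were 9 of 21 S phase members (42.9%) and 11 of 26 mitotic members (42.3%). The helicase subunits Mcm3, Mcm6 and Mcm7, the mitotic kinesins Kif11 and Kif23, the kinetochore genes Cenpe and Cenpf, and the survivin gene Birc5 were among them. The median log2 fold change was -0.78 over the 47 members and -0.01 over all genes tested. A value below 0 was found for 44 of 47 members and 50.2% of all genes. At an unadjusted p below 0.05 there were 30 of 47 members, beside 6141 of all 14278 genes tested. DESeq2 on the recovered reads called 19 lower and 0 higher, and edgeR called 17 lower and 0 higher.

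This count was lower when combination tumours 4 and 5 were left out. Without combination 4 it was 13 members, without combination 5 it was 9, and without both it was 5. Those 5 were Mcm3, Mcm6, Mcm7, Birc5 and Cenpe, all lower. Fewer tumours can also lower the calls among all genes, whose share in these settings was not set beside these counts. Leaving out every tumour with over 20% acinar reads left combination 1 and 3 and anti-CD40 1 and 5; 5 members were then lower and 1 higher, and with the acinar level as a covariate 11 were lower.

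**Figure D3:**
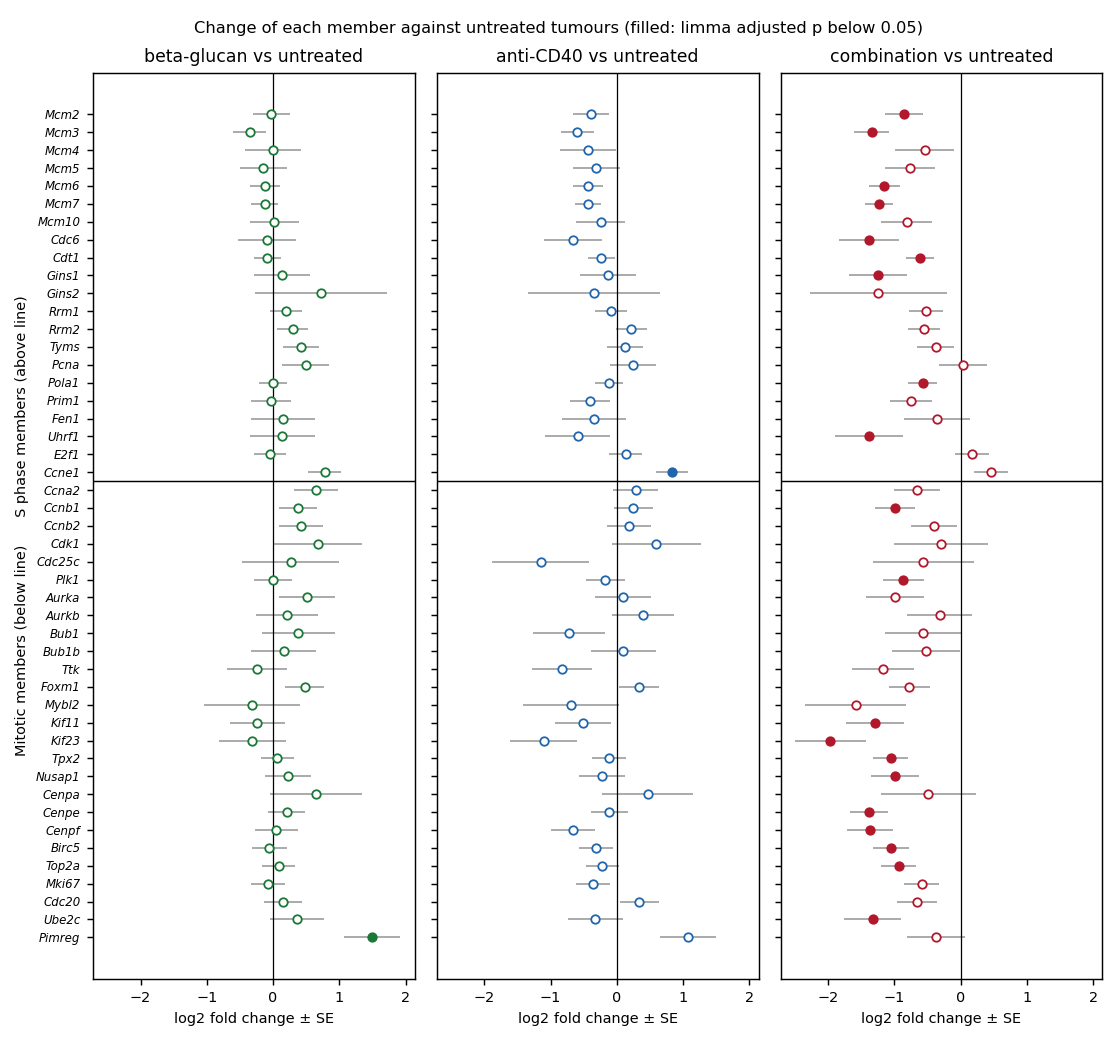
Log2 fold change ± SE (horizontal axis) of each of 47 tested members (rows) in each treatment against 5 untreated tumours; filled circles have a limma adjusted p below 0.05. Filled circles number 1 for beta-glucan, 1 for anti-CD40 and 20, all to the left of 0, for the combination.

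Licensing and helicase genes held most of the S phase members that fell: 7 of 11 were lower with the combination, with a median log2 fold change of -1.15. Mcm7 had normalized counts of 1180.5, 1297, 1104, 1319.7 and 1664 in untreated tumours 1, 2, 3, 5 and 6, and 684, 453, 740.3, 482 and 471 in combination tumours 1 to 5. After beta-glucan it ranged from 955 to 1349 with a median of 1271, and after anti-CD40 from 693 to 1452 with a median of 956. Every combination tumour lay below every untreated and every beta-glucan tumour. The log2 fold change was -1.23 ± 0.21, a 2.34-fold lower level (limma adjusted p = 7.3e-05). Mcm7 spans chr5:138164583-138172422 on the minus strand in the GRCm38 annotation; its last 1000 bases hold exons of Mir25 and Mir93 on the same strand and of Cops6 on the other, and the counting of strand is not given in the sources used here.

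Mcm3 had 1098, 1160.0, 1193, 1516 and 1387 in the untreated tumours and 655, 473, 614, 438 and 362 with the combination. It was 784 to 1272 after beta-glucan and 334 to 1308 after anti-CD40, with medians of 972 and 931. Combination and untreated tumours did not overlap, and the log2 fold change was -1.34 ± 0.26 (limma adjusted p = 0.000317). Mcm6 read 755, 911, 865, 642 and 604 without treatment against 365, 428, 396, 267 and 256 with the combination. Its medians after beta-glucan and anti-CD40 were 687 and 676, with ranges of 598 to 758 and 312 to 822. Here too the untreated and combination tumours were fully separated, at a log2 fold change of -1.15 ± 0.24 (limma adjusted p = 0.000526). Mcm3, Mcm6 and Mcm7 kept their calls in each of the 37 alternative analyses.

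Mcm2, another subunit of the same ring, fell by 0.86 on the log2 scale (± 0.29, limma adjusted p = 0.0222). It was 213 to 362 in combination tumours and 528 to 674 in 4 of 5 untreated tumours, and untreated 6 stood at 260.5, within the combination range. Cdc6, the loader, was 95.2, 96.2, 140.1, 18.6 and 39.8 with the combination against 115 to 249 without treatment, a log2 fold change of -1.39 ± 0.45 (limma adjusted p = 0.0203). Cdt1, the other loader, and Gins1, a GINS subunit, fell by 0.61 ± 0.21 and by 1.25 ± 0.44 (limma adjusted p = 0.0283 and 0.0319). The calls of Mcm2 and Cdc6 were lost without combination 4, without combination 5 and with the acinar covariate. Mcm4, Mcm5, Mcm10 and Gins2 had log2 fold changes of -0.54, -0.76, -0.81 and -1.24 that did not pass the test. Gins2 was thinly read, with normalized counts from 0 to 40.8.

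**Figure D4:**
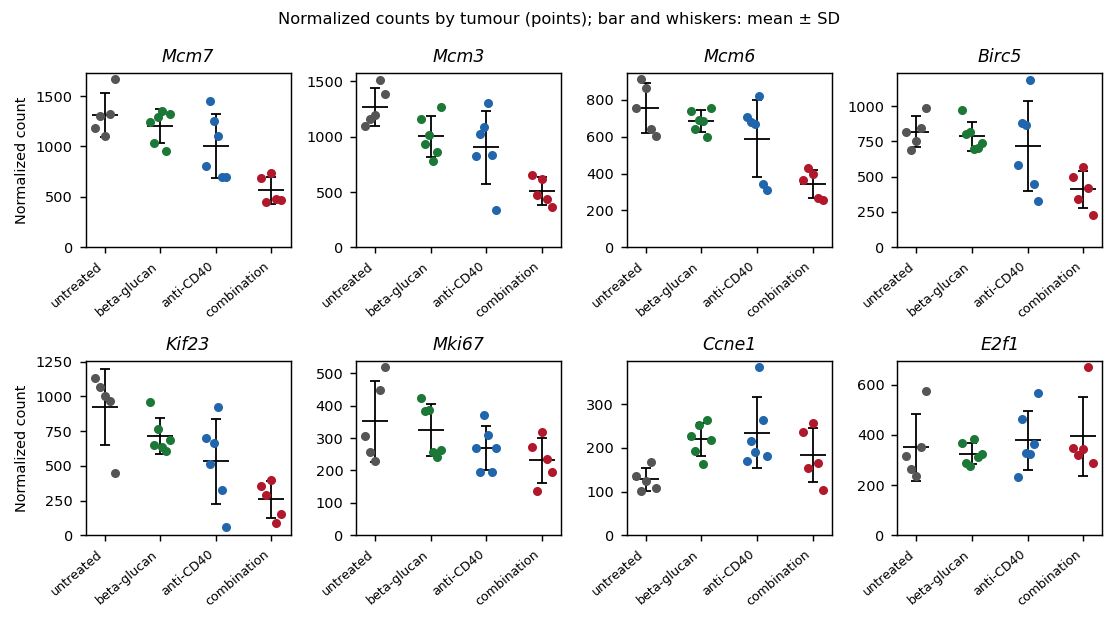
Normalized counts of 8 members (vertical axes, each from 0) in untreated (n = 5), beta-glucan (n = 6), anti-CD40 (n = 6) and combination (n = 5) tumours; points are tumours, bars means and whiskers SD. Combination tumours lie below all untreated tumours for Mcm7, Mcm3, Mcm6, Birc5 and Kif23, and overlap them for Mki67, Ccne1 and E2f1.

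Among the other S phase members, none of the 3 genes of nucleotide supply passed the test with the combination: Rrm1 and Rrm2, the subunits of ribonucleotide reductase, had log2 fold changes of -0.52 ± 0.25 and -0.55 ± 0.24, and thymidylate synthase Tyms -0.38 ± 0.28 (limma adjusted p = 0.114, 0.0812 and 0.325). Of 4 genes that act at the fork, Pola1, the catalytic subunit of DNA polymerase alpha, was lower at -0.57 ± 0.22 (limma adjusted p = 0.0467). Pcna, the sliding clamp, was 181, 252, 245, 90.3 and 329 in combination tumours and 182, 354, 247, 184 and 100.2 in untreated tumours. Those ranges overlapped almost in full, and the log2 fold change was 0.03 ± 0.37 (limma adjusted p = 0.955). Prim1, the primase subunit, and Fen1, the flap nuclease, had values of -0.75 ± 0.31 and -0.36 ± 0.50.

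Among the 3 regulators of S phase entry and chromatin, Uhrf1, which keeps DNA methylation at the fork, fell by 1.38 ± 0.51 on the log2 scale (limma adjusted p = 0.0400). E2f1, the activating E2F factor, was 348, 319, 345, 671 and 288 with the combination and 316, 266, 238, 353 and 576 without treatment. Each group held 1 tumour well above the rest, combination 4 and untreated 6, and the log2 fold change was 0.17 ± 0.26 (limma adjusted p = 0.646). Ccne1, the cyclin E1 gene that drives entry into S phase, had a positive value of 0.46 ± 0.26 with the combination (limma adjusted p = 0.171).

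In the mitotic class, all 4 tested spindle and motor genes fell with the combination: Kif23, Kif11, Tpx2 and Nusap1, with a median log2 fold change of -1.18. Kif23, needed for the midbody and cytokinesis, had 1129, 1069, 1000.3, 967 and 446 in untreated tumours and 358, 292, 399, 87.7 and 153 with the combination. It ranged from 605 to 957 after beta-glucan and from 62.5 to 919 after anti-CD40. All combination tumours were below the lowest untreated tumour, untreated 6, and the log2 fold change was -1.97 ± 0.53, a 3.91-fold lower level (limma adjusted p = 0.00642). Tpx2, which activates Aurora A on spindle microtubules, fell by 1.05 ± 0.27 (limma adjusted p = 0.00337). It was 259, 285, 451, 113 and 177 with the combination, and combination 3 lay within the untreated range of 364 to 585. Kif11, the kinesin that pushes spindle poles apart, and Nusap1, a microtubule bundler, had log2 fold changes of -1.30 ± 0.44 and -0.995 ± 0.36 (limma adjusted p = 0.0239 and 0.0366).

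Of 6 chromosome and centromere genes 4 fell: Cenpe, Cenpf, Birc5 and Top2a. Cenpe, a kinetochore motor, was 303, 205, 420.2, 94.3 and 143 with the combination against 632, 495, 416, 716 and 461 without treatment. Combination 3 was just inside the untreated range, and the log2 fold change was -1.38 ± 0.29 (limma adjusted p = 0.000705). Cenpf gave -1.37 ± 0.34 (limma adjusted p = 0.00336) and again overlapped the untreated tumours through combination 3, at 484.
Birc5, which encodes the passenger-complex subunit survivin, had 816, 690.5, 755, 842 and 987 in untreated tumours and 495, 341, 565, 417 and 229 with the combination. The groups did not overlap, the log2 fold change was -1.05 ± 0.27 (limma adjusted p = 0.0042), and the call held in all 37 alternatives. Top2a, the topoisomerase that untangles chromosomes, was 2218 to 2855 without treatment and 1994, 1171, 2147, 1041 and 779 with the combination, at -0.94 ± 0.26 (limma adjusted p = 0.00695). Combination 1 and 3 lay just under the untreated range and the other 3 far under it. Mki67, the Ki-67 gene used to count cycling cells, was 273, 136, 318, 236 and 194 with the combination against 307, 257, 229, 448 and 518, and did not pass (-0.59 ± 0.27, limma adjusted p = 0.0900). Cenpa, the centromeric histone, stood at -0.49 ± 0.72.

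The cyclin and kinase genes were more mixed. Ccnb1, cyclin B1, was the 1 of 5 genes of the cyclin and Cdk1 group that fell, at -0.99 ± 0.30 (limma adjusted p = 0.0139). Its counts were 306, 322, 211, 351 and 324 in untreated tumours, 199 to 215 in combination 1 to 3, and 99.6 and 88.3 in combination 4 and 5. Combination 2 alone lay above the lowest untreated tumour. Ccna2 and Ccnb2 had values of -0.65 ± 0.35 and -0.40 ± 0.35. Cdk1, the kinase that both cyclins activate, varied from 68.9 to 878 in untreated tumours and from 85.0 to 683 with the combination, and its log2 fold change was -0.30 ± 0.70 (limma adjusted p = 0.782). Cdc25c, the phosphatase that switches Cdk1 on, stood at -0.56 ± 0.76.
Of 6 mitotic kinase and checkpoint genes only Plk1 passed, at -0.86 ± 0.30 (limma adjusted p = 0.0304). Aurka, Aurkb, Bub1, Bub1b and Ttk ranged from -1.17 for Ttk (limma adjusted p = 0.0564) to -0.31 for Aurkb. The transcription factors of the G2/M programme, Foxm1 and Mybl2 (B-Myb), had values of -0.78 ± 0.31 and -1.59 ± 0.76 without passing (limma adjusted p = 0.0585 and 0.112). In the remaining group Ube2c, the ubiquitin-conjugating enzyme of the anaphase-promoting complex, fell by 1.33 ± 0.43 (limma adjusted p = 0.0194). Its activator Cdc20 stood at -0.66 ± 0.30 (limma adjusted p = 0.0980).

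Each tumour of the combination lay below each untreated tumour for 7 of 47 members, Mcm3, Mcm6, Mcm7, Kif11, Kif23, Birc5 and Top2a, against 10.3% of all genes tested.

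Beta-glucan alone was compared with no treatment next. Just 1 of 47 members changed, while 6.42% of all genes tested did (5.09% higher), and the median log2 fold change of the members was 0.14. Pimreg, a mitotic gene whose protein binds the clathrin adaptor CALM, was higher: 73.2, 47.5, 73.7, 68.7 and 73.9 in untreated tumours and 132 to 241, median 193, after beta-glucan. All 6 treated tumours were above all 5 untreated tumours, a separation seen upward in 3.98% of all genes, with a log2 fold change of 1.49 ± 0.42 (limma adjusted p = 0.0347). The call was lost in 11 of the 37 alternatives, while the direction held. Of these, 8 were single-tumour omissions (beta-glucan 1, 3, 5 or 6, or untreated 1, 2, 3 or 5). The count of members was 2 without anti-CD40 4, beta-glucan 4 or combination 5. DESeq2 called 2 members higher and edgeR 1. Ccne1 was 162 to 264, median 223, against 102 to 168, and 5 of 6 tumours were above the untreated range; it missed the threshold (0.78 ± 0.25, limma adjusted p = 0.0587). Mcm2, Top2a, Mki67 and E2f1 stood between -0.08 and 0.08. Ccna2, Cdk1, Foxm1, Pcna, Tyms and Ccnb1 had values of 0.64, 0.67, 0.47, 0.49, 0.42 and 0.38, with limma adjusted p from 0.301 to 0.658, and Mcm3 had -0.35.

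Anti-CD40 alone changed 1 of 47 members, against 18.6% of all genes tested (11.0% higher). Ccne1 was higher at 169.6 to 384, median 204, and all 6 tumours, as in 5.03% of all genes, were above the untreated tumours, whose counts were 136, 102, 125, 168 and 109. The log2 fold change was 0.83 ± 0.25 (limma adjusted p = 0.0188). That call was lost in 7 alternatives: without anti-CD40 4, without untreated 2, without tumours over 20% acinar reads, with the acinar covariate, with only the groups compared, and with either rescaling to equal totals. The count was 2 without anti-CD40 2, anti-CD40 6 or combination 5, and both DESeq2 and edgeR called 2 higher. Pimreg had a value of 1.07 ± 0.42 (limma adjusted p = 0.0818). The members with the smallest p below 0 were Mcm3 (-0.60 ± 0.25), Mcm7 (-0.44 ± 0.20), Kif23 (-1.11 ± 0.51), Cenpf (-0.66 ± 0.33), Mcm6 (-0.43 ± 0.23), Ttk (-0.83 ± 0.45) and Cdc25c (-1.15 ± 0.73), with limma adjusted p from 0.0996 to 0.301. Mki67, Top2a, Mcm2, Ccnb1, Cdk1, E2f1, Foxm1 and Pcna had values of -0.36, -0.22, -0.39, 0.25, 0.59, 0.13, 0.34 and 0.24. Spread was wide in this group: the median coefficient of variation was 41.1% over S phase and 44.9% over mitotic members, against 27.5% and 23.4% in untreated tumours.

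Set against beta-glucan tumours, the combination was lower for 24 of 47 members, 10 S phase and 14 mitotic, and higher for 0, where 14.1% of all genes tested changed and 7.61% were lower. DESeq2 called 24 lower and 0 higher, and edgeR 18 lower and 0 higher. An unadjusted p below 0.05 was found for 31 of 47 members, beside 4054 of all 14278 genes tested. Cenpe was 94.3 to 420.2 with the combination and 498 to 832 after beta-glucan, without overlap (-1.59 ± 0.28, limma adjusted p = 0.000865). Mcm7, Ccnb1 and Mcm6 followed at -1.10 ± 0.20, -1.37 ± 0.29 and -1.02 ± 0.23 (limma adjusted p = 0.00103, 0.00318 and 0.00401), each without overlap. All 3 genes of nucleotide supply, Rrm1, Rrm2 and Tyms, were lower here. Foxm1, Ccna2, Aurka and Pimreg were lower as well. For 15 of 47 members every combination tumour was below every beta-glucan tumour, against 5.80% of all genes. The count fell to 15 without combination 4, to 12 without combination 5 and to 2 without both. The share of all genes called in these settings, which can also fall with fewer tumours, was not set beside them.

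Against anti-CD40 tumours 3 of 47 members were lower with the combination and 0 higher, with 1.48% of all genes changed and 0.826% lower. They were Cenpe (-1.26 ± 0.28), Ccnb1 (-1.24 ± 0.29) and Mcm7 (-0.79 ± 0.20), with limma adjusted p of 0.0308, 0.0345 and 0.0433. All 3 overlapped the anti-CD40 tumours. At an unadjusted p below 0.05 there were 20 of 47 members, beside 2237 of all 14278 genes tested. DESeq2 called 11 members lower and edgeR 1. The count ran from 0, without combination 4 or 5 or anti-CD40 2, 3 or 4, to 14, without anti-CD40 6. It was 7 without anti-CD40 5, 5 without combination 3, and 1 without anti-CD40 1 or combination 1 or 2.

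The interaction asks whether the combination differed from the sum of the 2 single effects. It was called for 0 of 47 members in limma, and for 0.0210% of all genes (3 genes). Unadjusted p below 0.05 was found for 16 of 47 members, beside 1194 of all 14278 genes tested. The log2 value was below 0 for 45 of 47 members and for 54.2% of all genes. DESeq2 called 2 members and edgeR 0. Pimreg had the smallest p, with an interaction of -2.94 ± 0.60 (limma adjusted p = 0.0781), followed by Ccnb1 at -1.62 ± 0.41, Foxm1 at -1.59 ± 0.42 and Cenpe at -1.47 ± 0.39 (limma adjusted p from 0.193 to 0.209). Without anti-CD40 6 there was 1 call.

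S phase and mitotic members were then set side by side, in comparisons that share the untreated tumours. Against untreated tumours the mitotic median log2 fold change was above the S phase median by 0.21 after beta-glucan (0.20 and -0.00) and by 0.16 after anti-CD40 (-0.15 and -0.31), and below it by 0.15 with the combination (-0.90 and -0.75). Leaving out single tumours gave differences of 0.05 to 0.28, -0.00 to 0.25 and -0.31 to 0.10, and without tumours over 20% acinar reads the combination difference was 0.15. The sign for the combination thus depended on which tumours were included, and no test of this difference between classes was made.
The tested members of each class were also averaged within each tumour, on the log2(normalized count + 1) scale. The S phase mean was 7.17, 7.26, 7.60, 6.63 and 6.70 in combination 1 to 5, and 7.65 to 7.91 in untreated tumours. The mitotic mean was 7.52, 7.35, 7.73, 6.27 and 6.48 with the combination and 7.53 to 8.25 without treatment. All 5 combination tumours lay below the untreated S phase range, while combination 3 lay inside the untreated mitotic range. In combination 4 and 5 and anti-CD40 6 the mitotic mean was below the S phase mean, as it was in untreated 6 and beta-glucan 6. The median coefficient of variation with the combination was 37.5% over S phase and 52.0% over mitotic members.

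**Figure D5:**
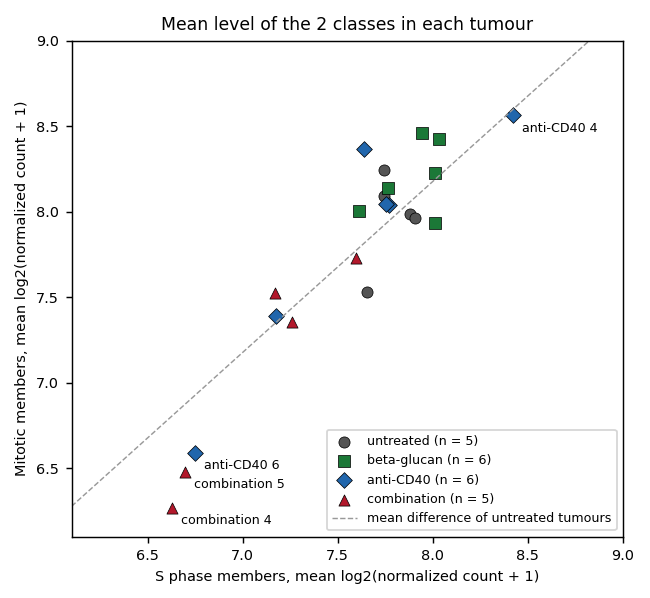
Mean log2(normalized count + 1) of 21 S phase members (horizontal axis) and 26 mitotic members (vertical axis) in each of 22 tumours; the dashed line has the mean difference of the untreated tumours. Both means move together, with combination 4 and 5 and anti-CD40 6 lowest and anti-CD40 4 highest.

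Cycle genes outside the 49 members were read from 3 further lists. With the combination 6 of 28 other S phase genes were lower (21.4%, against 15.8% of all genes tested) and 0 higher, with a median log2 fold change of -0.56. They included the chromatin remodeller Hells (-2.33 ± 0.68, limma adjusted p = 0.0104). Of 33 other G2 and M phase genes 16 were lower (48.5%) and 0 higher, median -0.81, led by the heterochromatin protein gene Cbx5 (-1.19 ± 0.21), the Cdk-binding Cks2 (-4.19 ± 0.93, with 0 reads in 3 of 5 combination and 3 of 6 anti-CD40 tumours) and Kif20b (-1.48 ± 0.35). Anti-CD40 lowered 1 of the 28, Casp8ap2 (-0.89 ± 0.23), and 3 of the 33, Cbx5, Cks2 and Ctcf, shares of 3.57% and 9.09% beside 7.56% of all genes tested. Beta-glucan lowered 0 of either list in limma, with unadjusted p below 0.05 for 2 of 28 and 4 of 33. Of all 14278 genes tested, 2732 had an unadjusted p below 0.05 after beta-glucan. The smallest p after beta-glucan in the G2 and M phase list belonged to Cks2 (-2.32 ± 0.89), Cbx5 (-0.45 ± 0.20) and Ctcf (-0.39 ± 0.18). In the S phase list Ubr7 and Slbp stood at 0.62 ± 0.30 and -1.54 ± 0.81 after beta-glucan, and E2f8 at -1.14 ± 0.61 after anti-CD40.

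Of 25 genes of G1, 3 were higher and 7 lower with the combination, or 40% called in either direction, near the 34.0% of all genes tested. The higher were the kinase inhibitors Cdkn1c (p57) and Cdkn1a (p21) and the pocket protein gene Rb1, with log2 fold changes of 2.35 ± 0.54, 0.67 ± 0.20 and 0.85 ± 0.30 (limma adjusted p = 0.0016, 0.0113 and 0.0336). Among the lower were Ccnd1 (cyclin D1, -1.42 ± 0.30), the Ink4 inhibitors Cdkn2a and Cdkn2b (-2.68 ± 0.57 and -2.23 ± 0.46), the G1 kinase Cdk4 (-1.003 ± 0.22) and its relative Cdk6 (-0.80 ± 0.20), with limma adjusted p up to 0.0038. The remaining 2 were the E2F genes E2f3 and E2f5. Anti-CD40 raised Cdkn1c and lowered E2f5 and Ccnd1 (-0.88 ± 0.29), while Cdkn1a stood at 0.21 ± 0.19. Beta-glucan changed 0 of 25 in limma, with unadjusted p below 0.05 for 2, beside 2732 of all 14278 genes tested. Ccnd1 and Cdkn1a stood at 0.03 and -0.05. The smallest p after beta-glucan belonged to Cdkn2d (1.07 ± 0.43), Ccnd2 (-0.54 ± 0.23) and Cdkn1c (0.98 ± 0.51).

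Markers of the cell types in a section also differed between the groups. Of 14 markers of epithelial cells, the lineage of this carcinoma, 11 were lower and 1 higher with the combination, with a median log2 fold change of -2.37, and 8 and 2 were lower after anti-CD40 and beta-glucan, with medians of -1.25 and -1.04. Their summed normalized count was 35586 to 47222 in untreated tumours, 11573 to 29340.0 after beta-glucan, 4694 to 25250.0 after anti-CD40 and 4127 to 9909 with the combination, and no marker was at 0 in every tumour of a group. Krt7, Krt19 and Elf3 fell furthest with the combination, at -4.93, -4.31 and -3.48. In each comparison the epithelial median was below the median of the members, which was itself above 0 after beta-glucan. The mean of S phase members minus the mean of epithelial markers was -1.73 ± 0.15 (SD, n = 5) in untreated tumours, -0.69 ± 0.42 (n = 6) after beta-glucan, -0.65 ± 0.82 (n = 6) after anti-CD40 and -0.27 ± 0.54 (n = 5) with the combination. For the mitotic members these values were -1.55 ± 0.18, -0.38 ± 0.50, -0.40 ± 0.83 and -0.27 ± 0.82. On this difference the mean of each treated group was above that of the untreated tumours for both classes.

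With the combination 10 of 10 T cell, 7 of 7 B cell, 9 of 9 macrophage, 8 of 8 fibroblast and 4 of 16 acinar markers were higher, and 3 of 5 germinal centre B cell markers were. All 16 acinar markers had a log2 fold change above 0, with a median of 5.01. In limma 15 of them had an unadjusted p below 0.05, beside 6141 of all 14278 genes tested. Summed T cell markers ran from 93.0 to 453 in untreated and from 2177 to 3725 in combination tumours, and summed macrophage markers from 11955 to 70547 and from 49803 to 103849. Cd79a was listed at 0 in every anti-CD40 and combination tumour, while the other B cell markers were read there. The part of any of these cells in the members' levels was not tested.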

How the data were processed

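RNA was read in 22 tumours from 3′ libraries of 100 ng RNA out of 5 µm sections (QuantSeq forward kit, per the labels' protocols). STAR, DESeq2 and the build mm10 are named in the submitters' processing notes. Counting program, annotation and strandedness were not given in the sources used here. The authors deposited a signal, normalized counts, in 1 table. In each tumour 100% of the 395252 values were whole multiples of 1 step within 0.001 reads, so reads were recovered. Columns without a sample numbered 0. Read counts were compared over 50 within-group pairs, and the closest pair still had a chi-square of 13.4 per degree of freedom, so none was counted as a repeat.

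The 14278 genes that reached 10 in 5 or more tumours were fitted in R 4.3.3 by limma 3.58.1 as log2(value + 1), two-sided, in 1 model of the 4 groups whose gene variances were moderated robustly toward a trend; the design was tested on simulated data. A filter on low values can pass a gene through 1 high group. Members, lists and tests were chosen with earlier results of these data known. Members named with values were 8 fixed genes, the 4 of each class with the smallest p in each contrast against untreated, and up to 4 called in the other contrasts; any further names were picked with values in view. Some genes of the cycle and marker lists are counted but not reported here by name. Alternatives changed the pseudocount, filter, scaling (equal totals, TMM, quantile), tool (edgeR 4.0.16, DESeq2 1.42.0 on recovered reads), covariates and tumours included. Gene positions came from GENCODE for GRCm38, promoters from RefSeq. Normalized values carry counting error that grows as reads fall, and intervals cover these samples only.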

Additional observations from a re-analysis of the deposited data

Results flagged for a closer look

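The 100 groups of values examined were those of the 22 named members, of the class means and of their difference. Of these, 3 held 1 tumour far from the rest, and chance alone sets about 1 in 20 such groups apart. E2f1 was 671 in combination 4, where the other 4 combination tumours had 288 to 348; this tumour was the lowest of all for 18 of 47 members. Kif23 was 446 in untreated 6, where the other untreated tumours had 967 to 1129, and acinar genes took 13.8% of the reads of that tumour. Pimreg was 47.5 in untreated 2, where the others had 68.7 to 73.9.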

How the results depend on the processing

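Over 37 alternatives none of the 22 members chosen by the naming rule reversed a call, and 10 of their 14 called results lost it in at least 1; the cause was not tested. Members called against untreated with the combination (20) were 11 with the acinar covariate, 5 without combination 4 and 5, 6 without tumours over 20% acinar reads and 9 to 25 when single tumours were left out. Against beta-glucan (24) they were 2, 1 and 12 to 26 in the last 3 settings. Against anti-CD40 (3) they were 11 with DESeq2, 1 with edgeR, 0 with equal totals (with or without acinar markers), 0 with only the 2 groups fitted, 0 without combination 4 and 5 or without tumours over 20% acinar reads, 14 without the tumour over 30% and 0 to 14 for single omissions. Beta-glucan (1) gave 2 with DESeq2, with only its groups, without combination 4 and 5 and without tumours over 20%, 0 with either equal totals or quantile scaling, and 0 to 2 for single omissions. Anti-CD40 (1) gave 0 with the acinar covariate or either equal totals, 2 with DESeq2, edgeR, without combination 4 and 5 or the tumour over 30%, 5 without tumours over 20% (1 higher, 4 lower, Ccne1 not among them) and 0 to 2 for single omissions. The interaction (0) gave 2 with DESeq2, 1 without the tumour over 30% and 0 to 1 for single omissions. The mitotic minus S phase difference of the combination was 0.15 without tumours over 20%. The settings without combination 4 and 5 and without tumours over 20% were chosen after seeing the data, and the latter leaves 2 tumours in each of 2 groups. Counts of members with tumours left out, or with DESeq2 or edgeR, are given without the share of all genes called in the same setting. Equal totals moved the median of all genes by -0.56 for anti-CD40 and -0.45 for the combination, in which 19 members were then called.

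Combination 5 is numbered 5 in its title and 6 in another label; 5 was used, and 6 was not tried. Taken so, replicate numbers did not pair the tumours: over 30 same-numbered pairs the median correlation of deviations was 0.03 (-0.27 to 0.34), and 5 tumours correlated best with their own number. With the number as a replicate block 21, 28, 3, 1, 1 and 0 members were called in the combination against untreated, beta-glucan and anti-CD40, in beta-glucan, in anti-CD40 and in the interaction. Members under a normalized count of about 40, such as Gins2, rest on few reads.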
